A study of Mus musculus with 8 samples.

Results

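The comparison described here asked whether the transcriptional response to interferon-gamma (IFN-γ) differed between 2 sublines of the mouse melanoma line B16F10. For every gene the log2 response of cells carrying a hairpin against Drg2 (shDRG2, with IFN-γ minus without) was set against the log2 response of cells carrying the empty hairpin vector (pLKO, with IFN-γ minus without), and the second was subtracted from the first. A positive log2 difference therefore means a larger rise, or a smaller fall, in shDRG2 cells. The contrast covers all 45556 named genes of the count table, of which 13500 had enough counts to be tested, and it uses all 8 libraries of the series. No measured value chose these tested genes beyond the filter on low counts. The gene lists described below, in contrast, were chosen with earlier results of these data known.

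The data are bulk RNA sequencing libraries in 4 groups of 2. The groups were pLKO cells without stimulation, pLKO cells given 5 ng/ml recombinant mouse IFN-γ for 24 h, shDRG2 cells without stimulation, and shDRG2 cells given the same treatment. All cells are B16F10, a pigmented line from a C57BL/6 melanoma that is widely used in work on immune checkpoint blockade, and the labels give no further allele, clone or sort. Each line is present once and with 1 hairpin label, so what is compared is these lines. The labels do not say whether the replicates were separate cultures, so p-values measure the spread between these libraries, which may be technical. Levels said to overlap or not between lines describe 2 libraries beside 2 and are not a test.

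IFN-γ binds a receptor coupled to the kinases JAK1 and JAK2, which activate transcription factors of the STAT family. These bind GAS elements and induce IRF1, and IRF family members act through interferon-stimulated response elements (ISRE). In melanoma cells this induces antigen presentation genes, guanylate-binding proteins, chemokines and the checkpoint ligand PD-L1 (Cd274), and interferon is known to lower pigment gene expression in melanocytes. DRG2 belongs to a conserved family of GTP-binding proteins, and the series title links it to PD-L1 on the cell surface.

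Library totals ran from 25422758 to 36654519 estimated counts. Drg2 was at 76.3 and 68.6 CPM (counts scaled to a common library size) in the unstimulated pLKO libraries and 72.3 and 64.3 with IFN-γ, against 8.68 and 9.34, and 6.46 and 7.66, in the shDRG2 libraries, so the 4 shDRG2 libraries matched their label. All 7 melanocyte markers were tested, and their summed level lay between 9620 and 14900 CPM. The 11 immune markers summed to 0.698 to 1.63 CPM, with Cd3e, Cd4, Itgam and Adgre1 at 0 in every library, and the 5 epithelial markers to 0 to 0.0666 CPM. The 7 fibroblast markers summed to 8.21 to 12.8 CPM, most of it Pdgfrb. The 5 endothelial markers summed to 0.457 to 2.16 CPM except in unstimulated shDRG2 cells, at 5.97 and 5.04 CPM, almost all of it Vwf (5.35 and 4.57 CPM), while Cdh5 and Kdr were at 0 throughout.

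Both lines responded to IFN-γ in much the same genes and to much the same extent. In pLKO cells 3796 genes were called (28.1%), 2082 up (15.4%) and 1714 down (12.7%), and in shDRG2 cells 4233 (31.4%), 2182 up (16.2%) and 2051 down (15.2%) (edgeR quasi-likelihood test, Benjamini-Hochberg adjusted p under 0.05). Of these, 3251 were called in the same direction in both lines, 1766 up and 1485 down. A further 544 were called in pLKO cells only, 523 of them with the same sign in shDRG2 cells, and 981 in shDRG2 cells only, 960 with the same sign in pLKO cells. Being called in only 1 line does not show a difference: of these genes, 1 was called when the difference itself was tested. The gene called in opposite directions was the pseudogene Rpl21-ps15, which never exceeded 0.367 CPM and was at 0 in 4 of the 8 libraries, and whose difference was not called (adjusted p = 0.844).

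The test of the difference called 1 of the 13500 genes (0.00741%), the processed pseudogene Gm8226, which was higher, and no gene was called lower. The next smallest adjusted p was 0.325. Without adjustment, p was under 0.05 for 321 genes (2.38%), 113 with a positive difference (0.837%) and 208 with a negative one (1.54%). This is a smaller share than the threshold of 0.05 would give with evenly spread p-values and no true difference. On the same filtered genes limma-voom called 1 gene, with 314 at an unadjusted p under 0.05, and DESeq2 called 9, with 196. Counts were also simulated with the spread of these libraries, for 13350 genes, with all true differences planted together in genes of at least 1 CPM. The procedure recovered 28 of 70 true differences of 1.5-fold (40%), 61 of 70 of 2-fold (87.1%) and 66 of 70 of 4-fold (94.3%). It made 12 false calls among 13140 unchanged genes. With fewer true differences the adjusted threshold is stricter, so these shares do not give the chance of a call in the measured data.

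For well expressed genes the data bound the difference. Among the 10038 genes averaging 5 CPM or more over the libraries, the median absolute log2 difference was 0.0774 with a median standard error (SE) of 0.14, and 98.7% lay under 0.5. The 95% interval lay within 1 log2 unit of 0 for 9775 genes (97.4%), and within 0.5 for 7256 (72.3%). Across genes the responses of both lines had a Pearson r of 0.982 at 5 CPM and above, and 0.915 over all 13500 genes (Spearman rho 0.827), which describes genes and not replicates. The scatter of shDRG2 against pLKO responses shows the genes lying along the line of equal responses from the strongest falls to the strongest rises, with Gm8226 alone far to the left.

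**Figure D1:**
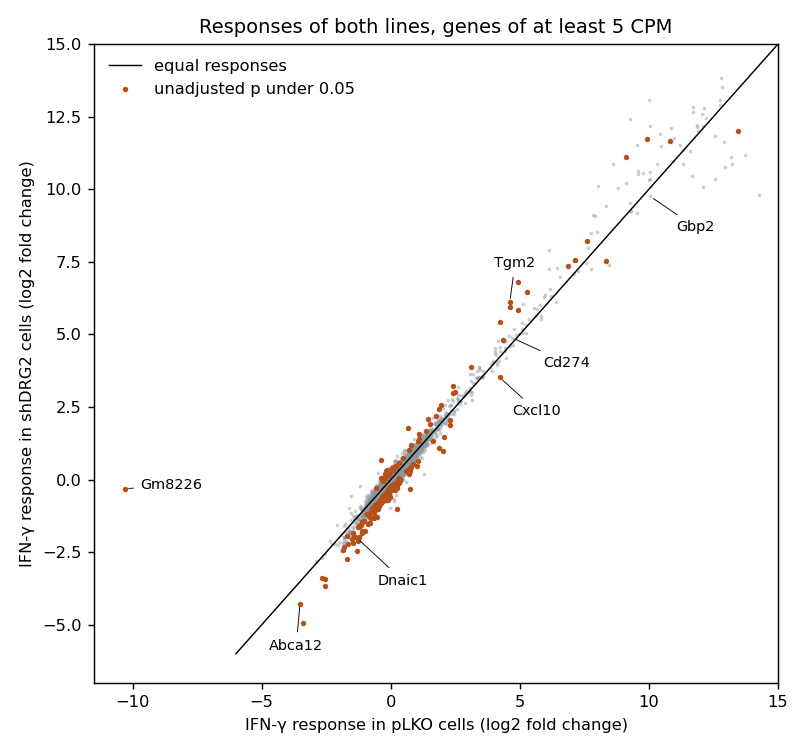
Log2 response to IFN-γ in shDRG2 cells (vertical) against pLKO cells (horizontal) for the 10038 genes of at least 5 CPM; each point is a gene, orange points have an unadjusted p under 0.05 for the difference (201 genes), and the line marks equal responses. Gm8226, at 0 in both pLKO libraries with IFN-γ, stands apart, the other orange points lie near the line, and positions at the far right are set by unstimulated levels at or near 0.

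Gm8226 is a processed pseudogene, an intronless copy of the mRNA of Rpl7a, which encodes a protein of the large ribosomal subunit. It lies on chromosome 9 (GRCm38, 84423984 to 84424781, plus strand, ENSMUSG00000099927.1) and overlaps no other annotated exon. Its 798 bases match the Rpl7a coding sequence (chromosome 2, 26910764 to 26913318) at 99.75%, with 2 differing positions. They are identical over all 798 bases to another processed pseudogene, Rpl7a-ps11 on chromosome X (166854211 to 166855011). The stretches around both differing positions are shown because they are the only places within the 798 bases where Gm8226 departs from Rpl7a, and no base separates Gm8226 from Rpl7a-ps11. Capitals mark the differing base (A186G and A747C, counted from 1 at the first base of the Rpl7a coding sequence).
Rpl7a, positions 161 to 211: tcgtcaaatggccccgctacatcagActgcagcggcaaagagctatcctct
Gm8226, positions 161 to 211: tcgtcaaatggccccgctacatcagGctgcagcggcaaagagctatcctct
Rpl7a, positions 722 to 772: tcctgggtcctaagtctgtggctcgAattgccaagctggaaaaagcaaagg
Gm8226, positions 722 to 772: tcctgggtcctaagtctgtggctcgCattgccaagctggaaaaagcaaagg

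Gm8226 was at 5.29 and 4.75 CPM in unstimulated pLKO libraries, 0 and 0 in pLKO libraries with IFN-γ, 11.4 and 12.2 in unstimulated shDRG2 libraries, and 11.4 and 7.58 in shDRG2 libraries with IFN-γ. The groups did not overlap between lines in either condition. With 3 counts per group taken as the floor, its fall in pLKO cells was at least 100-fold, against 1.27-fold in shDRG2 cells, and the difference between responses was at least 79.1-fold (adjusted p = 0.00478, edgeR quasi-likelihood test). These bounds cover counting error only. Its identical copy Rpl7a-ps11 had the opposite pattern, at 7.15 and 5.16, then 10.2 and 9.65 CPM in pLKO cells without and with IFN-γ, and at 1.31 and 0, then 0 and 3.67 in shDRG2 cells. Gm8226 was below Rpl7a-ps11 in every pLKO library and above it in every shDRG2 library. The copies lay closest in unstimulated pLKO cells.

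The sum of both copies was nearly level over the 8 libraries. It was 12.4 and 9.92 CPM in pLKO cells, 10.2 and 9.65 with IFN-γ, 12.7 and 12.2 in shDRG2 cells, and 11.4 and 11.2 with IFN-γ. With pseudogenes of contained sequence summed into 1 feature (213 sets holding 665 pseudogenes), the log2 difference of the pair was 0.03 with an adjusted p of 1, and the test called 0 of 13488 features, with 308 at an unadjusted p under 0.05. Rpl7a itself was at 658 to 771 CPM in all 8 libraries. The call of Gm8226 was thus absent once the identical copies were counted together, and its own value is uncertain.

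**Figure D2:**
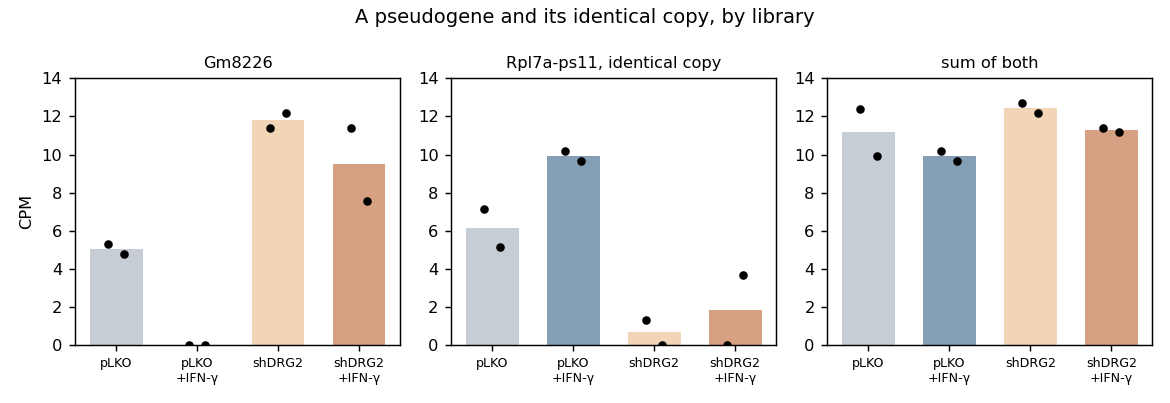
CPM of Gm8226, of its identical copy Rpl7a-ps11 and of their sum in the 4 groups; bars are means of 2 libraries and points are libraries. Gm8226 is at 0 in both pLKO libraries with IFN-γ where Rpl7a-ps11 is at 10.2 and 9.65, and the sum lies between 9.65 and 12.7 in every library.

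Pseudogenes made up 4 of the 10 genes of smallest p, Gm8226, Rps19-ps2 and Rpl21-ps15 among them. Of the tested genes matched to the annotation 565 (4.41%) are pseudogenes. Rps19-ps2 was at 0 in both pLKO libraries with IFN-γ and at 0.428 to 0.698 CPM in the 6 other libraries. Its 1 identical copy, Rps19-ps1, was at 0.445 and 0.487 CPM in both pLKO libraries with IFN-γ and at 0 in the 6 others. Tmem265, also among the 10, was at most 1.04 CPM in every library and shares all of its exon bases with Gm42715. Values for these genes are uncertain, and Rps19-ps2, Rpl21-ps15 and Tmem265 were not called (adjusted p = 0.844 for each).

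The other 5 of the 10 were protein-coding genes that responded in both lines. Col6a3, a chain of collagen VI, was low, at 0.489 and 0.344 CPM in pLKO cells and 1.52 and 1.40 with IFN-γ, and at 0.062 and 0.116 in shDRG2 cells and 2.03 and 2.60 with IFN-γ (log2 difference 2.89, adjusted p = 0.991). Tgm2, Cxcl10, Dnaic1 and Trpm1 were better expressed. None of the 5 passed the adjusted threshold with the edgeR quasi-likelihood test, while DESeq2 called Tgm2, Cxcl10, Dnaic1 and Trpm1. Tgm2 encodes transglutaminase 2, an enzyme that crosslinks proteins (chromosome 2, 158116402 to 158146436, minus strand). It was at 1.10 and 0.751 CPM in pLKO cells and 21.4 and 24.0 with IFN-γ, and at 1.21 and 1.09 in shDRG2 cells and 83.0 and 77.5 with IFN-γ. Unstimulated levels overlapped, and both stimulated shDRG2 libraries were more than 3 times as high as the pLKO ones. The rise was 24.4-fold in pLKO and 69.2-fold in shDRG2 cells, a log2 difference of 1.5 (SE 0.26, 95% interval 0.93 to 2.08, adjusted p = 0.656). Gm20412 overlaps 13.7% of its exon bases on the opposite strand.

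Cxcl10, the chemokine that recruits CXCR3-bearing T cells, went the other way. It was at 42.0 and 38.7 CPM in pLKO cells and 778 and 723 with IFN-γ, and at 82.0 and 87.6 in shDRG2 cells and 1017 and 921 with IFN-γ. All shDRG2 libraries were above the pLKO libraries of the same treatment, with the wider gap, as a ratio, before stimulation. The rise was therefore 18.6-fold in pLKO and 11.4-fold in shDRG2 cells, a log2 difference of -0.70 (SE 0.12, interval -0.98 to -0.43, adjusted p = 0.656). The line difference itself was 1.07 log2 without and 0.37 with IFN-γ.

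The bases before the annotated start of Cxcl10 are shown because the gene had one of the smallest p-values and carries the element through which interferon-induced complexes act. They are the 250 bases chr5:92348890-92349139 (GRCm38.p6, minus strand, RefSeq). Capitals mark a match to the ISRE core, which begins 213 bases before the start, and a match to the AP-1 motif TGANTCA, which begins 74 bases before it.
Cxcl10: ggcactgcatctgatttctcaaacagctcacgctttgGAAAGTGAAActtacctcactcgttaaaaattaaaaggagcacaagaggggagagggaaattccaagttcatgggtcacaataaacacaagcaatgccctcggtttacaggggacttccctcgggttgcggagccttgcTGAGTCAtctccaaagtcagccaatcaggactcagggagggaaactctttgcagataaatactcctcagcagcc

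Genes that fell made up most of the rest of the smallest p-values, and their falls were deeper in shDRG2 cells. Dnaic1, a dynein intermediate chain of motile cilia, was at 96.9 and 97.3 CPM in pLKO cells and 41.1 and 37.7 with IFN-γ, and at 104 and 102 in shDRG2 cells and 24.7 and 26.0 with IFN-γ. It fell 2.47-fold in pLKO and 4.06-fold in shDRG2 cells, a log2 difference of -0.72 (SE 0.11, interval -0.96 to -0.48, adjusted p = 0.325). The lines did not overlap in either condition, and the gap was small without and wider with IFN-γ. It overlaps Enho on the opposite strand, and Cxcl10 overlaps Art3 in the same way. Whether counting used strand is not given in the sources used here, so reads from these overlaps (0.539% of Dnaic1 exon bases and 5.91% of those of Cxcl10) cannot be told apart.

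Trpm1 encodes a cation channel of melanocytes and retinal bipolar cells and is a known target of the melanocyte regulator MITF. Its levels were 99.4 and 102 CPM in pLKO cells and 42.8 and 43.1 with IFN-γ, and 137 and 121 in shDRG2 cells and 29.3 and 36.7 with IFN-γ. Both shDRG2 libraries were above pLKO before stimulation and below it afterwards. The falls were 2.34-fold and 3.90-fold, a log2 difference of -0.74 (SE 0.15, interval -1.07 to -0.41, adjusted p = 0.844). The 250 bases before a start of Trpm1 inside the gene, chr7:64185209-64185458 (GRCm38.p6, plus strand, RefSeq), are shown for the E-box CACGTG in capitals, a motif bound by MITF and other basic helix-loop-helix factors, which begins 229 bases before that start.
Trpm1: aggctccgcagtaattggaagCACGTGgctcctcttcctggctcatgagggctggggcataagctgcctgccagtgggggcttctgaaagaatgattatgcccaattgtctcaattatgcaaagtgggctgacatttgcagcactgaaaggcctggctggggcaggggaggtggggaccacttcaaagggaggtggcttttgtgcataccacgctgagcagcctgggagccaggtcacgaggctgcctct

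A matching pattern of a higher start and a lower end was measured for Mgll, the lipase that degrades monoacylglycerols, which was picked after its values were seen as one of the 25 genes of smallest p at 5 CPM and above. It was at 159 and 212 CPM in pLKO cells and 49.4 and 63.9 with IFN-γ, and at 319 and 269.9 in shDRG2 cells and 45.2 and 43.8 with IFN-γ. The falls were 3.27-fold and 6.62-fold, a log2 difference of -1.02 (SE 0.22, adjusted p = 0.991). Libraries of the same treatment did not overlap between lines.

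Abca12, a lipid transporter of the ABC family, was among the 10 genes with the largest mean fall. It was at 608 and 508 CPM in pLKO cells and 52.4 and 45.3 with IFN-γ, and at 512 and 408 in shDRG2 cells and 25.5 and 22.1 with IFN-γ. Unstimulated levels overlapped, and stimulated levels were lower in both shDRG2 libraries. The falls were 11.5-fold and 19.3-fold, a log2 difference of -0.76 (SE 0.19, adjusted p = 1). The bar chart of 6 genes shows these patterns side by side.

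**Figure D3:**
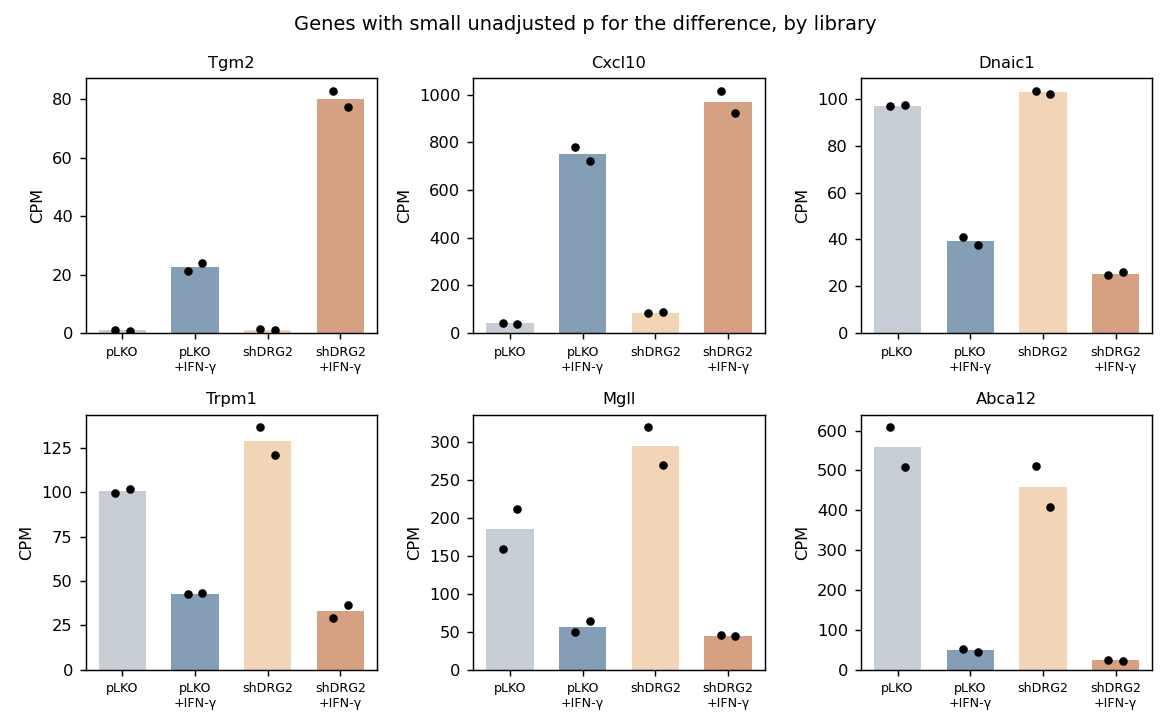
CPM of Tgm2, Cxcl10, Dnaic1, Trpm1, Mgll and Abca12 in the 4 groups; bars are means of 2 libraries, points are libraries, and each panel has its own scale from 0. Tgm2 reaches 83.0 and 77.5 in stimulated shDRG2 cells against 21.4 and 24.0 in pLKO cells, while Dnaic1, Trpm1, Mgll and Abca12 end lower in shDRG2 cells.

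Most of the further genes with small p-values were falls. Those named here were picked after their values were seen, except Hs3st1, which was among the 10 genes with the largest mean fall. Hs3st1, a heparan sulfate sulfotransferase, fell 5.8-fold in pLKO and 12.7-fold in shDRG2 cells (log2 difference -1.13, SE 0.28), and Gjb2, the gap junction protein connexin 26, fell 2.78-fold and 4.54-fold (-0.71, SE 0.16). The differences of Gsta1, a glutathione transferase, and Hpgds, prostaglandin D synthase, were -0.56 and -0.67. Among rises, Fstl3, a follistatin-like binder of activins, rose 2.71-fold and 4.21-fold (0.64, SE 0.16). Prss57 overlaps 47.3% of Fstl3 exon bases on the opposite strand, so reads from there cannot be told apart. Arntl2, a clock-related transcription factor, rose 1.57-fold and 3.42-fold (1.12, SE 0.27) from 5.10 and 7.04 CPM in pLKO cells and 1.68 and 1.47 in shDRG2 cells. Mras, a Ras family GTPase, rose less in shDRG2 cells (-0.57, SE 0.13), and ended at 128 and 115 CPM against 122 and 114 in pLKO cells. The adjusted p of each of these was 1 with the edgeR quasi-likelihood test.

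The IFN-γ signalling genes showed no detectable difference. Here and for the lists that follow, members named beyond the 2 most abundant of a list were picked after their values were seen. Of 14 receptor, JAK and STAT genes 0 were called in the difference, 0 had an unadjusted p under 0.05, and the median log2 difference was -0.02 beside -0.01 for all tested genes. Stat3, the STAT of interleukin-6 signalling, was at 63.5 and 70.2 CPM in pLKO cells and 387 and 346 with IFN-γ, and at 76.1 and 73.0 in shDRG2 cells and 413 and 353 with IFN-γ. It rose 5.48-fold and 5.13-fold, a log2 difference of -0.10 (interval -0.41 to 0.22). Its stimulated levels overlapped between lines, and the interval includes 0.

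The transcription factors induced downstream had 10 of 12 differences above 0 (9 with Irf7 set to the floor) and a median of 0.14, which ran from 0.05 to 0.34 with 1 library left out (lowest without replicate 2 of unstimulated pLKO cells, highest without replicate 1 of unstimulated shDRG2 cells), with 0 at an unadjusted p under 0.05. Irf1, an early target of IFN-γ signalling, rose from 9.59 and 13.4 to 579 and 582 CPM in pLKO cells and from 13.4 and 11.4 to 731 and 723 in shDRG2 cells (difference 0.21, interval -0.20 to 0.63). Irf7, which amplifies type I interferon and is named here after its values were seen, was at 0.489 and 0.594 CPM in pLKO cells and 16.1 and 17.8 with IFN-γ, and at 0 and 0 in shDRG2 cells and 0.633 and 0.547 with IFN-γ. It rose 31.3-fold in pLKO and at least 11.4-fold in shDRG2 cells, so the direction of the difference is not set by these counts, while stimulated shDRG2 cells had a 28.7-fold lower level.

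All 19 tested guanylate-binding proteins and immunity-related GTPases, which act against intracellular pathogens, rose in both lines (15.4% of all genes in pLKO and 16.2% in shDRG2 cells). Of their differences 11 were above 0 and 8 below, 0 were called, and 3 had an unadjusted p under 0.05 upwards (Gbp3, Irgm2, Tgtp2) and 1 downwards (Tgtp1), against 0.837% and 1.54% of all genes. Tgtp1 and Tgtp2 are near-identical neighbours, with differences of -1.42 and 0.85, and their split of counts is uncertain. The median of 0.06 became 0.41, and the counts 14 above and 5 below, when the 4 members with a group at 0 counts were set to the floor of 3 counts, so it depends on how those genes are treated. Gbp2, with the highest level in CPM of the list, went from 2.57 and 2.94 to 3001 and 2843 CPM in pLKO cells and from 4.14 and 3.53 to 3461 and 3185 in shDRG2 cells (difference -0.30, interval -0.69 to 0.09).

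Antiviral genes of the type I interferon signature were more often above 0 than below. Of 52 tested, 51 rose in each line (15.4% of all genes in pLKO and 16.2% in shDRG2 cells), 42 differences were above 0 and 10 below, and the median was 0.26. None was called, and 5 had an unadjusted p under 0.05, all upwards (0.837% of all genes): the helicase gene Dhx58 (0.91), the oligoadenylate synthetases Oas1b (0.85) and Oas2 (1.35), the GTPase Mx2 (0.78) and Rtp4 (0.48). Oas2 was at 0.611 and 0.845 CPM in pLKO cells and 13.5 and 21.8 with IFN-γ, and at 0.466 and 0.271 in shDRG2 cells and 27.4 and 20.1 with IFN-γ. Its stimulated levels overlapped between lines, and its line difference was -0.93 log2 without and 0.42 with IFN-γ. Ifit3, one of the 2 most abundant members, had a difference of 0.34 (interval -0.18 to 0.86). The median of the list was between 0.09 without replicate 2 of unstimulated shDRG2 cells and 0.50 without replicate 1 of that group. Its size thus rests on which of those libraries is used. Over the 16 ways of taking 1 library from each group, on log2(CPM + 0.5), it ran from -0.12 to 0.70, with 2 below 0. The IRF median ran from -0.05 to 0.17 in the same way, with 3 of 16 below 0. With groups at 0 set to the floor, the medians of the antiviral, IRF, MHC class I and MHC class II lists were 0.23, 0.11, -0.00475 and 0.26, and that of genes rising over 2 log2 units was 0.17. The antiviral count then was 41 above and 11 below, and the MHC class I count 11 above and 12 below.

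Antigen presentation genes were induced in both lines without a called difference. The MHC class I list had 9 of 23 differences above 0, a median of -0.02 and 3 at an unadjusted p under 0.05. These were Tap2 (0.51) and Psmb8 (1.79) upwards and H2-T23 (-0.78) downwards, against 0.837% and 1.54% of all genes. Psmb8, an immunoproteasome subunit, was at 0.124 and 0 CPM in unstimulated shDRG2 cells, and at 218 and 243 CPM with IFN-γ in pLKO cells against 253 and 239 in shDRG2 cells. Its stimulated levels overlapped between lines, and its unstimulated counts were 0 to 9 per library. The MHC class II list had 8 of 13 above 0 and a median of 0.26, and 12 of 13 were higher in stimulated shDRG2 than in stimulated pLKO cells. The same held for 6875 of all 13500 tested genes, and for 186 of the 222 genes with a mean rise over 2 log2 units. Cd74, the invariant chain, reached 192 and 298 CPM in pLKO cells and 413 and 396 in shDRG2 cells from at most 0.194 CPM, which leaves its difference of 0.26 with an interval of -4.27 to 4.79. H2-DMb1, with measurable levels before stimulation, went from 4.31 and 3.60 to 62.3 and 74.0 CPM in pLKO cells and from 7.53 and 6.39 to 107 and 109 in shDRG2 cells, a difference of -0.16 (interval -0.56 to 0.24). The class II median ran from -0.02 to 0.53 without 1 or the other unstimulated shDRG2 library.

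Several of the strongest rises started from 0. Mpeg1, Gvin1 and Ly6a had 0 counts in all 4 unstimulated libraries, so no difference between responses can be given for them. With IFN-γ, Mpeg1, a perforin-like pore protein, was at 27.2 and 29.5 CPM in pLKO cells and 69.8 and 46.9 in shDRG2 cells. Ly6a, the surface protein Sca-1, was at 24.5 and 30.9 in pLKO cells and 46.5 and 22.7 in shDRG2 cells. The levels of Mpeg1 did not overlap between lines and those of Ly6a did.

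For Cd274, the gene of PD-L1, the responses of both lines were close. It was at 8.86 and 11.2 CPM in pLKO cells and 248 and 269.8 with IFN-γ, and at 9.64 and 10.4 in shDRG2 cells and 298 and 293 with IFN-γ. Unstimulated levels overlapped and stimulated levels were slightly higher in shDRG2 libraries. The rises were 25.8-fold and 29.6-fold, a log2 difference of 0.19 (interval -0.15 to 0.53, adjusted p = 1), which does not show equality. AC119228.1 overlaps 14.1% of Cd274 exon bases on the opposite strand. Of the 13 checkpoint and costimulatory ligands tested 8 were above 0 and none was called. An unadjusted p under 0.05 was found for 1 (Tnfrsf14, -1.99, at most 0.435 CPM unstimulated), against 2.38% of all genes. Cd47, the signal that restrains phagocytosis, differed by 0.13 (interval -0.22 to 0.47), and the macrophage growth factor Csf1 by 0.02 (interval -0.32 to 0.37). Drg2 itself had a log2 difference of -0.26 (interval -0.61 to 0.09) and was not called in either response.

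Grouping genes by their mean response over both lines, a contrast orthogonal to the difference, gave a graded pattern in which edgeR called no gene but Gm8226. The mean response was called for 5954 genes (44.1%), 3042 up (22.5%) and 2912 down (21.6%). In the 144 genes of at least 5 CPM that fell by 1 to 2 log2 units, the median response was -1.16 in pLKO and -1.37 in shDRG2 cells, and 121 (84%) had the deeper fall in shDRG2 cells. In the 20 genes with a mean fall over 2 log2 units the medians were -2.31 and -2.44, and 16 had the deeper fall in shDRG2 cells. Gm8226, whose own value is uncertain, is among these 20, with the smaller fall in shDRG2 cells. The medians of the gene-by-gene differences were -0.20 and -0.33. Over the 16 ways of taking 1 library from each group, computed on log2(CPM + 0.5), these medians ran from -0.26 to -0.15 and from -0.55 to -0.13, all below 0. Without replicate 2 of stimulated shDRG2 cells the median of the 20 genes was -0.52, and without replicate 1 it was -0.20. For comparison, the 8339 genes with a mean response within 0.5 had a median of -0.01, with 53.1% below 0.

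Rises leaned the other way but less firmly. The 222 genes with a mean rise over 2 log2 units had median responses of 4.44 in pLKO and 4.68 in shDRG2 cells, a median difference of 0.16 and 160 (72.1%) above 0, and the 211 with a rise of 1 to 2 a median of 0.05. The 16 library combinations gave -0.08 to 0.42 for the first set, with 14 of 16 above 0, and -0.07 to 0.16 for the second, with 11 of 16. The median of the first set was 0.08 without replicate 1 of stimulated shDRG2 cells and 0.24 without replicate 1 of unstimulated shDRG2 cells, against 0.16 with all libraries. Of the 201 genes of at least 5 CPM with an unadjusted p under 0.05 (2.00%), 109 had fallen by mean response, 106 of them further in shDRG2 cells, and 55 had risen, 36 of them further in shDRG2 cells.

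The pigmentation and melanocyte lineage genes showed this most evenly. All 23 tested of 30 listed had a negative difference, with a median of -0.31 beside -0.01 for all tested genes, and 12 of 23 had an unadjusted p under 0.05, all lower, against 1.54% of all genes. None was called with edgeR, and DESeq2 called Trpm1. The median response was -0.35 in pLKO and -0.69 in shDRG2 cells, with 15 members called down and 1 up in pLKO cells (12.7% and 15.4% of all genes) and 20 down and 0 up in shDRG2 cells (15.2% and 16.2% of all genes). The genes share the same 8 libraries, so they are not independent observations. Their list was chosen with earlier results of these data known. The list's median lay between -0.37 and -0.23 over the 16 library combinations, and between -0.35 and -0.27 with each library left out in turn. In bulk RNA, fewer cells expressing a gene and less RNA per cell cannot be told apart.

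Among the regulators, Mitf, the master transcription factor of the lineage, was at 456 and 477 CPM in pLKO cells and 362 and 401 with IFN-γ, and at 432 and 460.2 in shDRG2 cells and 266 and 311 with IFN-γ (difference -0.34, interval -0.63 to -0.04). Its unstimulated levels overlapped and its stimulated levels did not. Sox10 and Pax3, which act upstream of Mitf, had differences of -0.07 (interval -0.37 to 0.24) and -0.11 (interval -0.36 to 0.14). Lineage regulators thus ranged from near 0 to the middle of the list.

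Among melanin enzymes, Dct, dopachrome tautomerase, was at 4466 and 4716 CPM in pLKO cells and 3659 and 3911 with IFN-γ, and at 4463 and 4350.3 in shDRG2 cells and 2605 and 2846 with IFN-γ. It fell 1.21-fold in pLKO and 1.62-fold in shDRG2 cells (difference -0.41, SE 0.12, interval -0.69 to -0.14). Tyr, the rate-limiting enzyme, and Tyrp1 had differences of -0.18 (interval -0.46 to 0.10) and -0.17 (interval -0.46 to 0.11). Dct was the only 1 of the 3 whose interval did not include 0.

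Among melanosome proteins, Pmel, which forms the fibrils on which melanin is laid down, was at 3498 and 3346 CPM in pLKO cells and 2481 and 2291 with IFN-γ, and at 4777 and 4204 in shDRG2 cells and 2409.7 and 2441 with IFN-γ (difference -0.37, interval -0.65 to -0.08). Here libraries of both lines did not overlap before stimulation and did after it, the reverse of Mitf, which describes these libraries and tests no line difference. The melanosomal transporters Slc45a2 and Slc24a5 had differences of -0.39 and -0.36. Rab27a and Myo5a, which with Mlph carry melanosomes along actin, had -0.40, -0.29 and -0.29, the last with an interval of -0.59 to 0.02. Gpnmb, the most abundant of the list in CPM, rose 1.21-fold in pLKO cells, was not called in shDRG2 cells and differed by -0.13 (interval -0.41 to 0.14).

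Across the 23 genes, 20 were higher in shDRG2 than in pLKO cells without stimulation (median line difference 0.19) and 17 were lower with IFN-γ (median -0.09). Of all 13500 tested genes 6999 were higher without stimulation and 6624 lower with IFN-γ. The counts were 33 and 27 of 40 for G2/M genes, and 17 and 6 of 52 for antiviral genes. The 7 melanocyte markers are all in the pigmentation list. Their summed level was 13000 and 12900 CPM in pLKO cells and 11100 and 11000 with IFN-γ. It was 14900 and 13900 in shDRG2 cells and 9620 and 10100 with IFN-γ. The shDRG2 libraries were the highest group before and the lowest group after stimulation. The interval plot of the 23 genes shows every estimate to the left of 0.

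**Figure D4:**
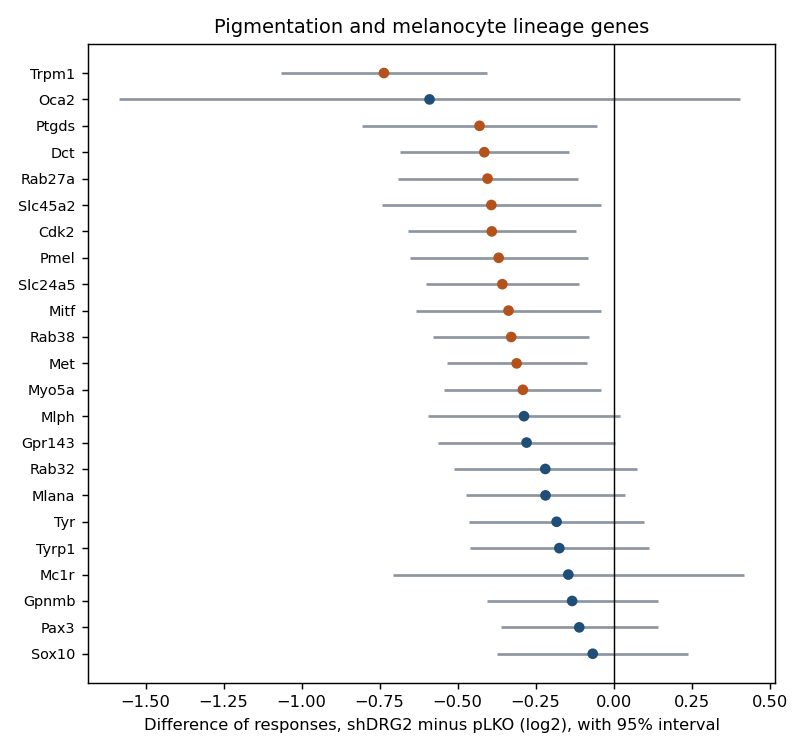
Log2 difference of responses, shDRG2 minus pLKO (horizontal), for the 23 tested pigmentation and melanocyte lineage genes, with 95% intervals from the edgeR fit; orange points have an unadjusted p under 0.05. All 23 points lie below 0, from -0.74 for Trpm1 to -0.07 for Sox10, and 12 are orange.

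Cell cycle and cholesterol genes also had mostly negative differences, but small ones that single libraries decided. Of 44 S phase genes 37 were below 0 (median -0.08) and of 40 G2/M genes 38 (median -0.08), with 0 at an unadjusted p under 0.05 in either list. The G2/M median ran from -0.23 without replicate 2 to 0.03 without replicate 1 of stimulated shDRG2 cells, and the S phase median from -0.15 without replicate 2 to 0.00119 without replicate 1 of stimulated pLKO cells. Mki67, the proliferation antigen, had the lowest value of the G2/M list, -0.49 (interval -0.99 to 0.00077). Of 32 genes of cholesterol synthesis and uptake 27 were below 0 (median -0.09), with a range from -0.20 without replicate 2 of stimulated pLKO cells to 0.03 without replicate 1 of unstimulated shDRG2 cells.

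The other lists had medians near 0. Cytokine feedback inhibitors (median 0.04), NF-κB genes (0.06), hypoxia and glycolysis (0.02), p53 targets (6.59e-05), stress response genes (0.01), heat shock proteins (0.03), cell death genes (0.02), complement (-0.05), chemokines (0.05), endosomal sorting genes (-0.04) and lysosomal genes (-0.04) each had at most 2 members at an unadjusted p under 0.05, against 2.38% of all genes. With 1 library left out, the chemokine median ran from -0.12 (without replicate 2 of unstimulated shDRG2 cells) to 0.20 (without replicate 2 of stimulated pLKO cells). The hypoxia and glycolysis median ran from -0.11 (without replicate 1 of stimulated shDRG2 cells) to 0.18 (without replicate 1 of unstimulated shDRG2 cells). Within the ERK output list Dusp6 (0.40) and Myc (0.36) were above 0 and Spry1 (-1.35) below, with a list median of 0.03. Dedifferentiation and matrix genes had a median of -0.07, with 3 of 30 at an unadjusted p under 0.05 upwards and 2 downwards. The shares over all genes were 0.837% and 1.54%. No gene of the 29 lists was called with edgeR, while DESeq2 called the members Cxcl10, Tgm2 and Trpm1. The dot plot by list shows the pigmentation genes as the group with the lowest median among lists of more than 5 tested genes.

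**Figure D5:**
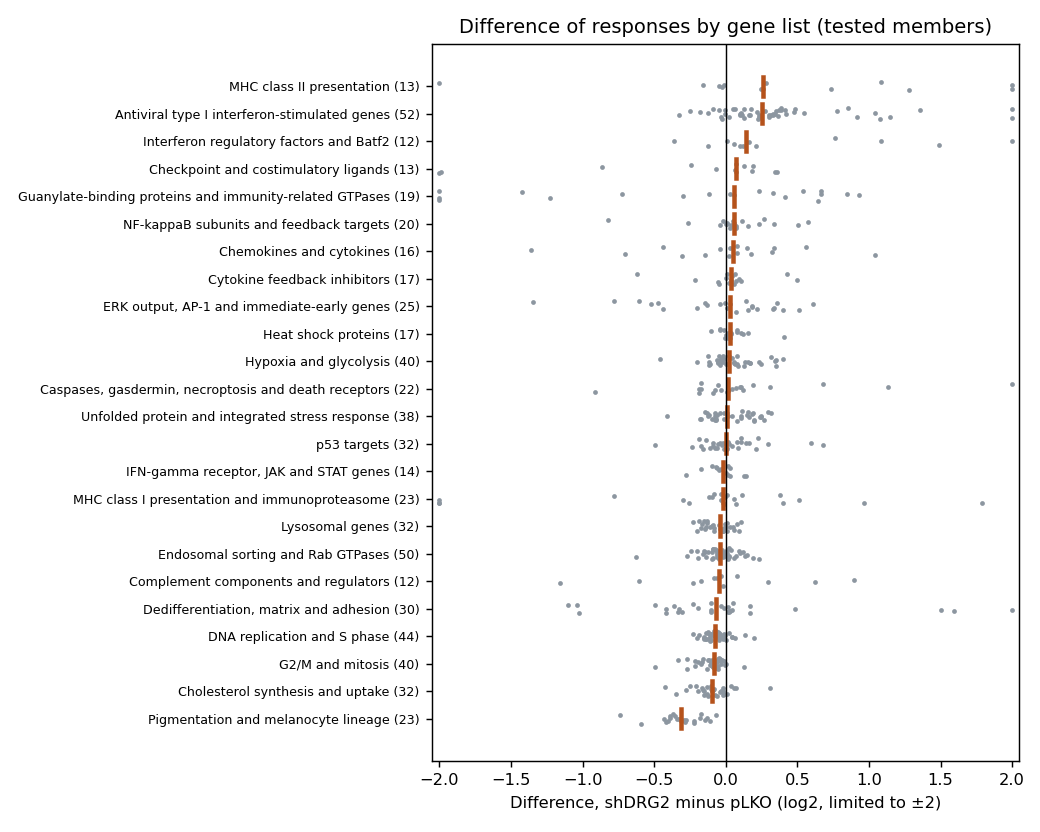
Log2 difference of responses, shDRG2 minus pLKO, for the tested members of each list drawn (number in parentheses); points are genes, bars are list medians, and values beyond the axis are drawn at its limits. Medians run from -0.31 for pigmentation genes to 0.26 for MHC class II and antiviral genes, and no gene shown was called with edgeR.

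Promoter windows of RefSeq genes (250 bases before to 50 after each start, GRCm38.p6, both strands) were searched for 4 motifs. The ISRE core was in the windows of 35% of the 157 genes with a window and a mean rise over 2 log2 units, of 9.38% of those with a rise of 1 to 2, of 4.24% of those with a fall over 1 and of 3.99% of all 27025 genes. The GAS motif TTCNNNGAA was in 17.2%, 15.6%, 3.39% and 9.55%, and the AP-1 motif TGANTCA in 17.8%, 8.12%, 6.78% and 8.97%, in the same order. The E-box CACGTG was in 17.8% of genes with a fall over 1, in 12.6% of genes within 0.5 and in 8.09% of all genes. It was in 4 of the 16 pigmentation genes with a window (25%), among them Trpm1 and Rab27a, and a window of Mgll also holds it. The AP-1 motif was also in 4 of the 16 (25%). Of tested genes with a window, 12.0% held the E-box and 6.09% the AP-1 motif. None of the 16 held the ISRE or GAS letters, which says only that these letters are not in these windows. A match is a description of sequence and not a measured site.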

How the data were processed

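Total RNA from B16F10 cells was sequenced in 8 libraries of 4 groups of 2. The authors deposited expected counts per gene, made with STAR and Salmon 1.5.2 on mm10 per the submitters' processing notes, which state neither the part nor the sequence of each tool. These estimated counts are not scaled between libraries, and 86.4% of nonzero values were whole to within 0.0015. How transcripts were summed to genes, the annotation release and the strand setting: not given in the sources used here. The labels' protocol states both 100-base and 150-base reads. Salmon divides reads among similar transcripts, so counts of near-identical copies are uncertain.

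Of 45583 table entries, 27 with names turned into dates (0.204% to 0.212% of counts per library) were left out. Counts were rounded to whole numbers. The model was fitted with edgeR 4.0.16 (R 4.3.3): filterByExpr, TMM (factors 0.973 to 1.04), 1 coefficient per group, a quasi-likelihood F test (two-sided) with 4 residual and 6.10 prior degrees of freedom, and Benjamini-Hochberg adjustment over 13500 genes at 0.05. The biological coefficient of variation was 8.49%. An SE is the absolute log2 value divided by the square root of the F statistic, and 95% intervals use it with t quantiles. CPM are per TMM-scaled library. Replicates correlated at 0.996 in log CPM. Over genes above a minimum count, their variance averaged 14.0 to 18.0 times that of counting noise. The fit was tested on simulated data. Copies were found with blastn 2.17.0, and positions come from GENCODE M21 (GRCm38), which matched 94.8% of tested genes.

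Named genes are those called in the difference (at least 1 CPM), the 10 of smallest p when few are called, called list members, the 10 with the largest mean rise and the 10 with the largest mean fall (at least 5 CPM), the 2 most abundant of each signalling, effector or melanocyte list, and Drg2 and Cd274; all other named genes, list members among them, were picked after their values were seen. Lists are described by counts and medians, with no set test. The members, the 29 lists and the rules were chosen with earlier results of these data known. Alternatives were 17 planned settings and 2 added after seeing the data, with limma 3.58.1 and DESeq2 1.42.0 as other tools. Some items are not reported here.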

Additional observations from a re-analysis of the deposited data

Results flagged for a closer look

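The response of the pseudogene Gm8226 to IFN-γ differed between the lines by the test of the difference itself (adjusted p = 0.00478, edgeR quasi-likelihood test), and it was the only gene for which this held. With IFN-γ, both pLKO libraries had 0 counts of it, while shDRG2 libraries had 11.4 and 7.58 CPM. The summed level of Gm8226 and its identical copy Rpl7a-ps11 was 9.65 to 12.7 CPM in all 8 libraries, and the summed feature had an adjusted p of 1.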

How the results depend on the processing

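The count of genes called in the difference was 1 with RLE, upper-quartile or library-size scaling, limma-voom, robust empirical Bayes, a filter of 1 CPM in 2 libraries and the added limit of 5 CPM. It was 9 with DESeq2 (Gm8226, Cxcl10, Mgll, Dnaic1, Tgm2, Tmem265, Trpm1, Gjb2 and Gm3055), 58 without a filter (21 higher, 37 lower, 17 with a group at 0 and 33 of at least 5 CPM, of 21481 tested, with 543 at an unadjusted p under 0.05), and 0 with identical copies summed, an alternative chosen after seeing the data; the cause of the first 2 was not tested. Leaving out 1 library gave 1 to 2, the 2 being Gm8226 and Zfp708 without replicate 1 of unstimulated pLKO cells. Gm8226 passed in every alternative except with copies summed, where its difference was 0.03 (adjusted p = 1). Leaving out 1 library gave 2482 to 3749 called responses in pLKO cells (lowest without replicate 1 of unstimulated pLKO cells, and 2495 without replicate 2 of the stimulated ones) and 2720 to 4297 in shDRG2 cells (lowest without replicate 1 of stimulated shDRG2 cells); a group left with 1 library is assumed to vary like the others. The median difference of genes rising by 1 to 2 log2 units reversed to -0.02 (-0.0151) without replicate 1 of stimulated shDRG2 cells, with a range of -0.0151 to 0.101. With the replicate number as a block the difference gave 2 calls (Gm8226 and Abca12, adjusted p = 0.0336), with 608 at an unadjusted p under 0.05, and the responses 5166 and 5634. Deviations of same-numbered libraries correlated at 0.136 to 0.595 between groups. There are only 2 numbers and the labels state no pairing, so what these libraries share beyond a number is not known.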

Other observations

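Genes on chromosome 14 had a lower level in shDRG2 than in pLKO cells as a group, with a median line difference of -0.265 log2 over 332 genes of at least 5 CPM both without and with IFN-γ. The median difference between responses on that chromosome was -0.00202.

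Vwf, the platelet adhesion protein known from endothelial cells, was at 1.07 and 1.56 CPM in pLKO cells and 0.482 and 0.335 with IFN-γ, and at 5.35 and 4.57 in shDRG2 cells and 0.433 and 0.246 with IFN-γ. Its log2 difference was -2.19 (interval -3.38 to -0.996), with Cdh5 and Kdr at 0 in every library, and it was picked after its values were seen.

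Masp1, a protease of the lectin pathway of complement, was at 12.9 and 10.01 CPM in pLKO cells and 5.71 and 3.72 with IFN-γ, and at 6.81 and 5.70 in shDRG2 cells and 1.23 and 1.07 with IFN-γ (log2 difference -1.16, interval -1.91 to -0.40). Thbs1, the matrix protein thrombospondin 1, was at 5.62 and 4.91 CPM in pLKO cells and 24.4 and 18.2 with IFN-γ, and at 3.30 and 5.58 in shDRG2 cells and 7.36 and 9.98 with IFN-γ (-1.02, interval -1.79 to -0.25). Neither was called, and both were picked after their values were seen.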
